A study of Homo sapiens with 6 samples.

Results

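Enzymes of deoxynucleotide (dNTP) synthesis and salvage, encoded by 9 genes, were followed in U87, an established human glioblastoma cell line, of the 27192 genes listed in each library. They are TK1, TYMS, RRM1, RRM2, DUT, DCK, DGUOK, TK2 and RRM2B. The 9 genes were selected on the large fall of TK2 in the comparison described here and were completed by function, so their differences between groups are given as a description. No p-value is printed for them, "called" only marks an adjusted p under 0.05 in the fit over all genes, and nothing is inferred from how many were called. The control libraries came from cells transfected with siGL2, a nonspecific control siRNA, and the knockdown libraries from cells transfected with a pair of siRNAs against the long noncoding RNA LINC00152. Both groups received 2 rounds of lipid transfection 24 hours apart and were collected 24 hours after the last one. The groups differed in the siRNA delivered, and effects of the siRNAs on RNAs other than LINC00152 were not tested. The 2 siRNAs were combined, so the effect of either alone cannot be told apart. Each group held 3 libraries, lettered A, B and C. The labels do not say whether these were separate cultures. A p-value therefore reflects the spread among these 6 libraries alone, and that spread may be technical.

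DNA synthesis needs a balanced supply of the 4 deoxynucleoside triphosphates. Ribonucleotide reductase makes them from ribonucleotides. Its large subunit is encoded by RRM1, and its small subunit by RRM2 in cycling cells or by RRM2B, a form that also serves cells outside S phase. TYMS makes thymidylate from dUMP, and DUT supplies dUMP while clearing dUTP. Salvage kinases recycle deoxynucleosides: TK1 in the cytosol during S phase, DCK in the cytosol and nucleus through the cell cycle, and TK2 and DGUOK in mitochondria, where they feed the copying of mitochondrial DNA. TK1, TYMS, RRM1, RRM2 and DUT are here called the S-phase supply genes.

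Promoter sequence from RefSeq on GRCh38.p14 is shown for TK2, the gene with the largest fall, and for 3 of the S-phase supply genes. Each run holds the 250 bases before an annotated start, 5′ to 3′ on the strand of the gene. Capitals mark 3 kinds of motif on either strand: E2F words (TTTGGCGC, TTTCCCGC, TTTCGCGC or TTTGCCGC), the NF-Y word CCAAT, and TTTGAA, the cell cycle homology region word. The windows are chr16:66550123-66550372 (minus strand) for TK2, chr18:657403-657652 (plus) for TYMS, chr15:48331947-48332196 (plus) for the last of 4 listed starts of DUT, and chr2:10122489-10122738 (plus) for the first of 2 of RRM2.
TK2: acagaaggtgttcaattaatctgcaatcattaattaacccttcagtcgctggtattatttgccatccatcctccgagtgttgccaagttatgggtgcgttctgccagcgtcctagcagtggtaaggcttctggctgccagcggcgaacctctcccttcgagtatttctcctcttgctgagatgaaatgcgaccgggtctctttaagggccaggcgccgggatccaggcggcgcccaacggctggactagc
TYMS: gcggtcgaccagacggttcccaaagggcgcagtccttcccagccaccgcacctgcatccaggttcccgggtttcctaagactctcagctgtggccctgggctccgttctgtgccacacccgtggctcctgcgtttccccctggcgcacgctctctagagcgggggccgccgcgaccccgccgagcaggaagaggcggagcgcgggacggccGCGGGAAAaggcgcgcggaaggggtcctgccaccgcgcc
DUT: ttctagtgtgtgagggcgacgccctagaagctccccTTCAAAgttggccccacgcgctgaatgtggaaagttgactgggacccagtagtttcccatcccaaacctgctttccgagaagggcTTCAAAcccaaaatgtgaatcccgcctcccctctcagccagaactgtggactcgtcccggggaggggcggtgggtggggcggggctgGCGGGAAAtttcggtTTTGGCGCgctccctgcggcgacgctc
RRM2: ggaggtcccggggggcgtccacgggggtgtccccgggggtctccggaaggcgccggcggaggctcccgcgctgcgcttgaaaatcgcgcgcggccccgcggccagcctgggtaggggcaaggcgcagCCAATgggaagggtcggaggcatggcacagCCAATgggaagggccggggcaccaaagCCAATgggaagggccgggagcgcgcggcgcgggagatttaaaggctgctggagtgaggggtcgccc

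The TK2 window held none of these words, also when the 50 bases after the start were added. TYMS held 1 E2F word, beginning 39 bases before the start. DUT held 2 E2F words, beginning 42 and 27 bases before the start, and 2 TTTGAA words, while the windows of its other 3 listed starts held none of the words. RRM2 held 3 CCAAT words, beginning 123, 93 and 66 bases before the start. Of the 8 members with an entry in the RefSeq promoter table, DCK was the only other one with an E2F word, which began 21 bases after its start. Among windows not shown, CCAAT also occurred in those of RRM1 and DGUOK, in 1 of TK1 and in the other of RRM2. TTTGAA also occurred in that of RRM1, and the other TK1 window held none of the words. An E2F word occurred in a window of 3.99% of 27305 genes, CCAAT in 39.7% and TTTGAA in 18.2%. A match is a description of letters and not of binding.

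Library totals ran from 41963120 to 46234763 counts, and LINC00152 stood at 608 to 776 counts in the siGL2 libraries against 109 to 114 in the siLINC00152 libraries. LINC00152 was lower in 3 of 3 knockdown libraries by −2.51 ± 0.09 (SE) on the log2 scale (edgeR quasi-likelihood test, adjusted p = 4.55e-15). Part of its sequence is shared with MIR4435-2HG, and the part of that gene in the LINC00152 counts was not tested. Markers of mesenchymal glioma cells, led by VIM, summed to 18968 to 19401 CPM (counts scaled to a fixed library total) in the control and 16173 to 16727 after knockdown. Glial markers summed to 44.6 to 47.2 and 30.3 to 34.7 CPM, almost all SLC1A3, with AQP4 at 0 and GFAP at 0.26 CPM or less in every library. Neuronal markers summed to 77.0 to 79.5 and 50.3 to 55.5 CPM, nearly all SNAP25 and SYT1. RBFOX3 stood at 0.024 CPM or less and SYN1 at 0.283 CPM or less in every library. Microglial markers, nearly all CSF1R, stood at 22.8 to 23.5 and 12.4 to 13.4 CPM with AIF1 at 0, while endothelial (led by PECAM1) and epithelial (led by EPCAM) markers stayed at 2.66 CPM or less in every library. The part of these markers in the results was not tested.

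All 9 genes had enough counts to be tested. Of the 9, 8 were lower after knockdown at an adjusted p under 0.05 and 1, RRM2B, did not pass, while of all 14078 tested genes 4529, or 32.2%, were called lower and an equal 32.2% higher, together 64.3%. Because this comparison chose the set, nothing is read from that count. The 3 libraries of each group did not overlap for any of the 8. How many of all tested genes were apart in this way was not counted, so nothing is read from it. The median log2 fold change was −0.58 over the 9 genes and −0.0011 over all tested genes.

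**Figure D1:**
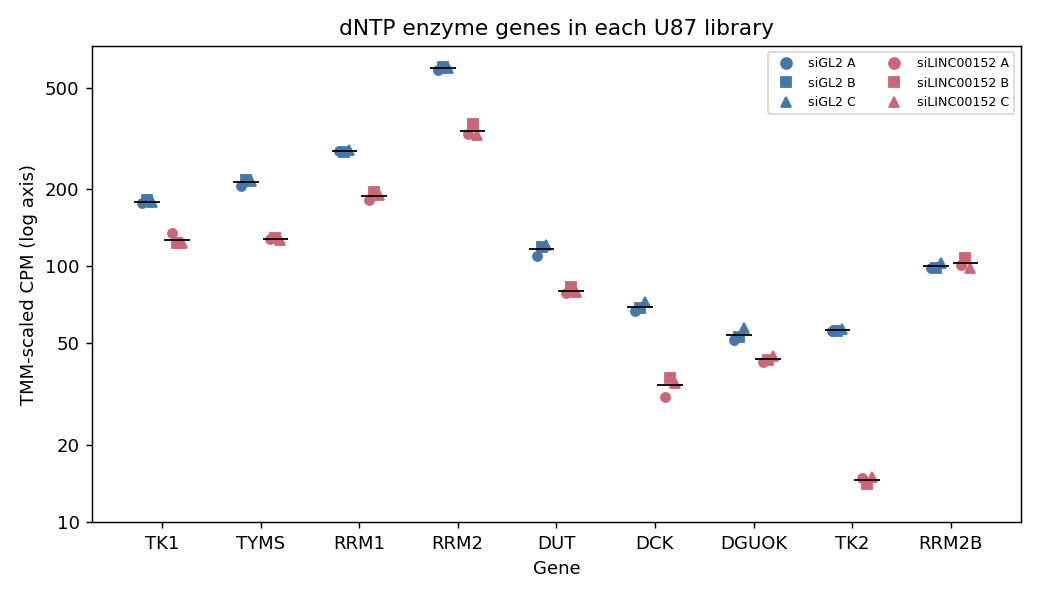
TMM-scaled CPM on a log axis for the 9 genes in each library; blue points are siGL2 and red points siLINC00152 libraries, marker shapes are the letters A, B and C, and black lines are group means. The 2 groups overlap for RRM2B only, and how many of all tested genes were apart was not counted. The gap is widest for TK2, at 56.2 to 56.8 against 14.2 to 15.004 CPM.

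TK2 encodes the mitochondrial thymidine kinase, which phosphorylates thymidine and deoxycytidine (ENSG00000166548.15; chromosome 16, 66508003 to 66552544, minus strand, hg38). Its counts were 2438, 2426 and 2688 in siGL2 libraries A, B and C and 612, 595 and 639 after knockdown. In TMM-scaled CPM, which adjusts library sizes for composition, these were 56.2, 56.2 and 56.8 against 14.9, 14.2 and 15.004. Every knockdown library was far below every control library, and libraries within a group were nearly equal.

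TK2 fell by 1.94 ± 0.05 (SE) on the log2 scale, or 3.84-fold, to 26.1% of its control level. The 95% confidence interval of the log2 difference was −2.05 to −1.83, and without any 1 library the value stayed between −1.96 and −1.91. Of 14078 tested genes, 52 (0.369%) had a lower log2 fold change. Of exonic bases of TK2, 21.9% overlap exons of genes on the opposite strand, AC010542.4 and AC010542.2, and 3.15% overlap AC010542.3 on its own strand. The libraries were strand-directional, but no source used here gives the strand setting of the counting. The counts do not list any of these 3 genes under these symbols. Their part in the TK2 counts was not tested.

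DCK, the deoxycytidine kinase, also salvages deoxyadenosine and deoxyguanosine (chromosome 4, 70992538 to 71030914). It stood at 67.2, 68.9 and 72.7 CPM in the control and 31.0, 36.7 and 35.1 CPM after knockdown. The knockdown libraries were all lower, with A the lowest. DCK fell by 1.02 ± 0.06 (SE) on the log2 scale, or 2.03-fold, with values of −1.07 to −0.95 without any 1 library. Genes called lower and at least 2-fold made up 3.53% of those tested, and TK2 and DCK were the 2 members among them. MOB1B, which shares 6.17% of the exonic bases of DCK on its own strand, stood at 40.3 ± 2.05 CPM in the control and 42.8 ± 2.10 after knockdown (SD, n = 3), and was called, at 0.13 on the log2 scale, only without siGL2 replicate A among the settings tried.

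DGUOK, the mitochondrial deoxyguanosine kinase, which also takes deoxyadenosine, differed least among the 8 (chromosome 2, 73926826 to 73958961). It stood at 51.6, 53.1 and 57.4 CPM in the control and 42.4, 43.0 and 44.8 CPM after knockdown. The groups did not overlap, but the lowest control library was close to the highest knockdown library. DGUOK fell by 0.32 ± 0.05 (SE) on the log2 scale, to 80.3% of its control level. The 95% confidence interval of its log2 difference was −0.43 to −0.21. DGUOK-AS1, on the opposite strand of 4.26% of its exonic bases, stood at 1.96 ± 0.252 against 1.29 ± 0.00343 CPM (SD, n = 3) and fell by 0.60 ± 0.16 (SE; edgeR adjusted p = 0.00214), and its part in the DGUOK counts was not tested.

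RRM2B was the member that did not pass. Its CPM was 98.9, 98.7 and 103 in the control and 102, 108 and 98.7 after knockdown, so the groups overlapped. The log2 difference was 0.04 ± 0.05 (SE), with a 95% confidence interval of −0.06 to 0.14. Scaled by library size alone it was −0.03, and it was −0.0012 without siLINC00152 replicate B, so no direction is given for RRM2B.

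**Figure D2:**
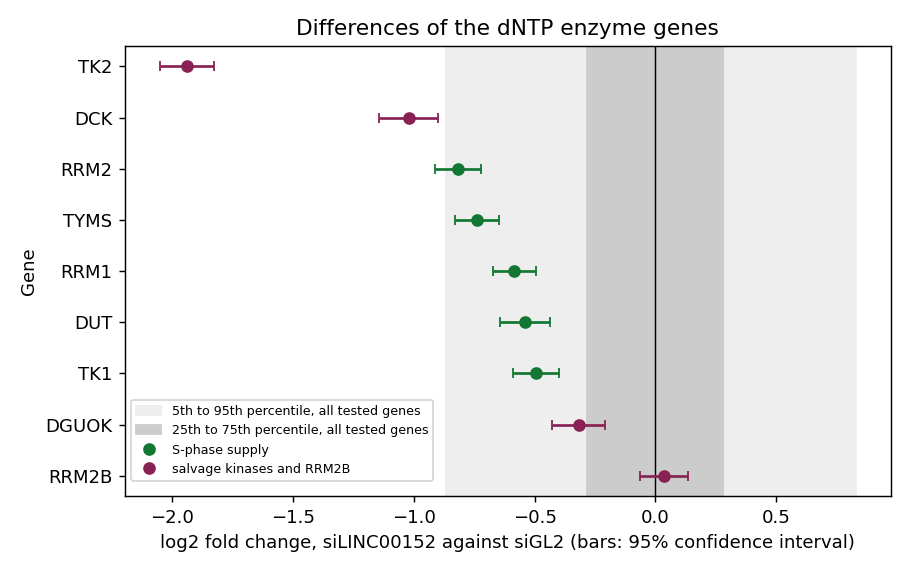
Log2 fold change of siLINC00152 against siGL2 for each gene, with its 95% confidence interval as a bar; green points are S-phase supply genes, purple points are the salvage kinases and RRM2B, and grey bands span the 5th to 95th and the 25th to 75th percentile of all tested genes. TK2 and DCK lie below the 5th percentile of −0.87, and RRM2B lies near 0.

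The 5 S-phase supply genes were all lower, within a range of −0.82 to −0.49 on the log2 scale. RRM2, the small subunit that rises in S phase (chromosome 2, 10120698 to 10131419), stood at 586, 604 and 597 CPM in the siGL2 libraries. In the siLINC00152 libraries it stood at 328, 359 and 326 CPM, all well below the control. RRM2 fell by 0.82 ± 0.05 (SE), or 1.76-fold. Of its exonic bases, 20.2% also belong to AC007240.1 on the same strand, which the counts do not list under that symbol.

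RRM1, the large subunit that pairs with either small subunit, stood at 284, 281 and 284 CPM in the control (chromosome 11, 4094707 to 4138876). After knockdown it stood at 182, 195 and 190 CPM. It fell by 0.58 ± 0.04 (SE), to 66.7% of control, and no library of one group reached the other. RRM1-AS1, opposite 1.51% of its exonic bases, is not listed in the counts under that symbol.

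TYMS, thymidylate synthase, stood at 206, 219 and 215 CPM in the control and 128, 129 and 127 CPM after knockdown (chromosome 18, 657604 to 673578). The knockdown libraries were nearly equal and all lower. TYMS fell by 0.74 ± 0.04 (SE), or 1.67-fold. ENOSF1 lies on the opposite strand of 39.1% of the exonic bases of TYMS and stood at 37.7 ± 1.57 CPM in the control and 40.3 ± 1.31 after knockdown (SD, n = 3), and did not pass (log2 fold change 0.10 ± 0.05, SE; edgeR adjusted p = 0.103). TYMSOS, opposite another 7.41%, rose by 0.38 ± 0.12 (SE), with means of 2.57 ± 0.252 and 3.35 ± 0.212 CPM (SD, n = 3; edgeR adjusted p = 0.00911). Of the 3 genes, TYMS was the one called lower.

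DUT, the dUTPase, stood at 110, 119 and 121 CPM in the control and 78.5, 83.2 and 79.3 CPM after knockdown (chromosome 15, 48331011 to 48343373). It fell by 0.54 ± 0.05 (SE), or 1.45-fold. Of its exonic bases, 14.5% lie opposite AC023355.1, which the counts do not list under that symbol. TK1, the cytosolic thymidine kinase (chromosome 17, 78174075 to 78187233), stood at 178, 182 and 178 CPM in the control. After knockdown TK1 stood at 135, 124 and 123 CPM, all lower, with A the highest. It fell by 0.49 ± 0.05 (SE), or 1.41-fold, the smallest difference of the 5, and no annotated exon of another gene overlaps those of TK1.

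Ratios between genes were taken within each library, after adding 0.5 to each CPM. The ratio of TK1 to TK2, the cytosolic to the mitochondrial thymidine kinase, was 3.14, 3.23 and 3.11 in siGL2 libraries A, B and C (CPM + 0.5). It was 8.78, 8.49 and 7.98 in the siLINC00152 libraries, 2.66 times the control ratio. All 3 knockdown libraries lay above all controls, as both genes fell and TK2 fell further. The ratio of RRM2 to RRM2B, the S-phase small subunit to the form that also serves cells outside it, was 5.90, 6.09 and 5.75 in the control. After knockdown it was 3.22, 3.31 and 3.29, a log2 difference of −0.85. These counts are not per length, so a ratio compares libraries and not the abundance of the pair.

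**Figure D3:**
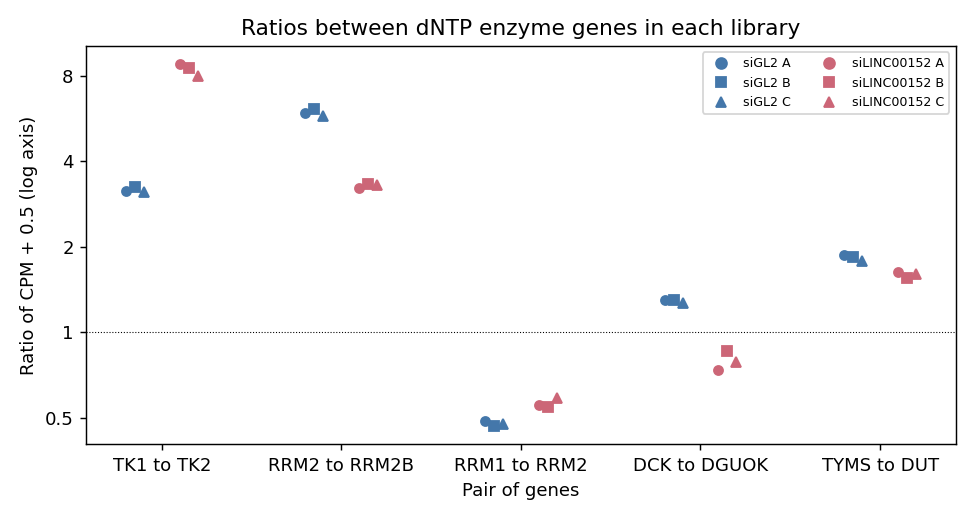
Ratio of CPM + 0.5 between 5 pairs of genes in each library, on a log axis; blue points are siGL2 and red points siLINC00152 libraries, and marker shapes are the letters. TK1 to TK2 is higher after knockdown, from 3.11 to 3.23 up to 7.98 to 8.78, and RRM2 to RRM2B is lower.

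Levels per length, which the choice of genes did not use, were compared within the control. Per kilobase of merged exons, RRM2 was highest at 112 ± 1.67 CPM (SD, n = 3), followed by TK1 at 96.4 ± 1.45, TYMS at 86.3 ± 2.70 and RRM1 at 67.8 ± 0.356. DGUOK (37.1 ± 2.04), DUT (31.8 ± 1.61), DCK (21.6 ± 0.883) and RRM2B (18.1 ± 0.488) came next. TK2 was lowest at 7.87 ± 0.0531 CPM per kilobase. The ranges of 3 libraries did not overlap between any neighbours in this order. With the longest transcript as length, TYMS passed TK1 and DUT passed DGUOK, so the order within these 2 pairs depends on the length used. After knockdown TK2 stood at 2.05 ± 0.0643 CPM per kilobase, still the lowest. TK1 at 68.4 ± 3.46 was then above RRM2 at 63.5 ± 3.47, with overlapping ranges, and RRM2B at 18.5 ± 0.872 was above DCK at 10.6 ± 0.918.

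**Figure D4:**
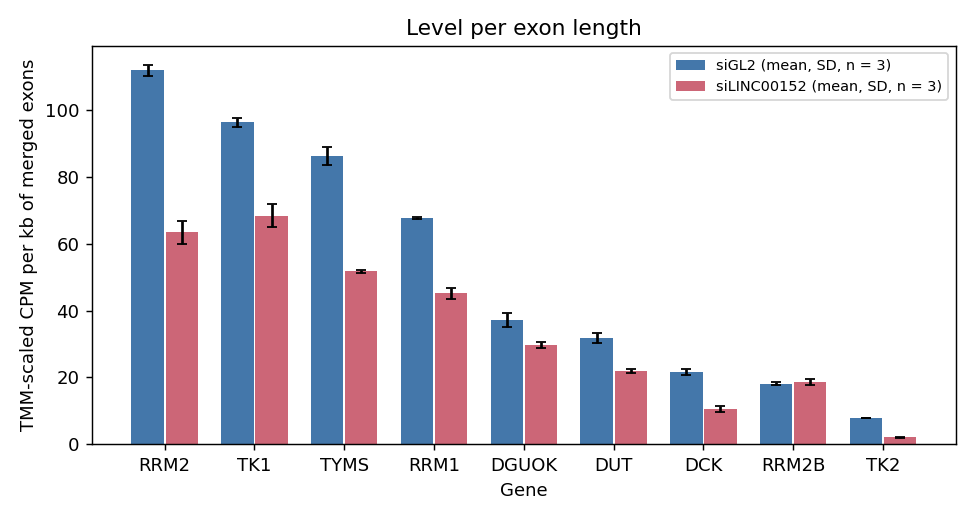
TMM-scaled CPM per kilobase of merged exons for the 9 genes, ordered by the control level; bars are means of 3 libraries and error bars are SD. The control levels run from 112 for RRM2 to 7.87 for TK2, and RRM2B alone has bars of like height.

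Genes known to be high in S phase were lower beside the S-phase supply genes. Of 22 such genes, 21 fell and CCNA2 (−0.0067 ± 0.05, SE) was not called, where 32.2% of all tested genes were called lower. The median log2 fold change was −0.71, against −0.58 for the 5 supply genes and −0.0011 for all tested genes. The transcription factor gene E2F1 fell by 1.16 ± 0.05 and the helicase subunit gene MCM3 by 1.03 ± 0.04 (edgeR adjusted p = 1.18e-14 and 3.43e-14). CDC6, which helps load the helicase, fell by 1.01 ± 0.05. UNG, a glycosylase that removes uracil from DNA, fell by 0.89 ± 0.05 (for CDC6 and UNG, edgeR adjusted p = 3.26e-13 and 2.90e-12). In bulk RNA, fewer cells in S phase and less of these RNAs per cell cannot be told apart.

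Genes that work beside TYMS and the thymidine kinases were mostly called lower. Of 8 tested genes of the thymidylate cycle and the next kinase step, 5 fell, 1 rose and 2 were not called. Among all tested genes, 32.2% were called lower and 32.2% higher. The median log2 fold change of the 8 was −0.46. MTHFD1, which supplies one-carbon folates, fell by 0.83 ± 0.05 (SE; edgeR adjusted p = 2.17e-12), and the serine hydroxymethyltransferase genes SHMT1 and SHMT2 fell by 0.79 ± 0.06 and 0.46 ± 0.05 (edgeR adjusted p = 1.40e-10 and 2.65e-08). DTYMK, the thymidylate kinase that takes up the product of TYMS and TK1, stood at 131 ± 4.23 CPM in the control and 83.7 ± 1.99 after knockdown (SD, n = 3). DTYMK fell by 0.64 ± 0.05 (edgeR adjusted p = 1.50e-10). CMPK1, a kinase of CMP and UMP, rose by 0.23 ± 0.05 (edgeR adjusted p = 4.03e-04). The count of genes that rose was 2 without siGL2 replicate A or without siLINC00152 replicate A. Of 11 nucleoside diphosphate and monophosphate kinases, 2 fell (18.2%), 2 rose and 7 did not pass (median −0.03). The share called lower was below the 32.2% of all tested genes. The mitochondrial adenylate kinase gene AK4 rose by 0.86 ± 0.04, with means of 256 ± 7.83 and 467 ± 6.45 CPM (SD, n = 3; edgeR adjusted p = 4.89e-13). NME4, a mitochondrial nucleoside diphosphate kinase, fell by 0.26 ± 0.05 and NME1 by 0.33 ± 0.07 (edgeR adjusted p = 2.75e-04 and 4.60e-04).

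Nucleotide transport held the largest fall outside the 9 genes among the fixed lists. SLC25A33, a mitochondrial carrier of pyrimidine nucleotides, had counts of 273, 340 and 365 in the control and 88, 83 and 93 after knockdown. All knockdown libraries were below all controls. SLC25A33 fell by 1.80 ± 0.11 (SE), with means of 7.29 ± 0.871 and 2.10 ± 0.110 CPM (SD, n = 3; edgeR adjusted p = 2.42e-11). SLC25A36, another carrier of this kind, rose by 0.39 ± 0.04, from 118 ± 4.28 to 155 ± 1.98 CPM (edgeR adjusted p = 1.56e-07). SLC29A1, an equilibrative nucleoside transporter of the plasma membrane, fell by 0.79 ± 0.05 (edgeR adjusted p = 5.55e-11), and SLC29A3 rose by 0.33 ± 0.10 (edgeR adjusted p = 0.00531). SLC29A4 rose by 0.65 ± 0.23 with overlapping groups and means of 0.660 ± 0.150 and 1.05 ± 0.259 CPM (edgeR adjusted p = 0.02), and lost its call with DESeq2 and without siGL2 replicates A or B or siLINC00152 replicates A or B, at log2 fold changes of 0.51 to 0.66. Of 10 genes listed, 6 were tested. Of these, 2 fell, 3 rose and 1 was not called, beside 32.2% lower and 32.2% higher among all tested genes. The median was 0.17.

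Genes for enzymes that break down or clean dNTP pools were more often called lower than higher, where 32.2% of all tested genes were called in each direction. Of 15 tested, 11 fell, 1 rose and 3 were not called. The median log2 fold change was −0.19, within a range of −0.92 to 0.89. DCTPP1, which removes abnormal dCTP forms, fell by 0.74 ± 0.05 (SE; edgeR adjusted p = 1.99e-10), the purine nucleoside phosphorylase gene PNP by 0.53 ± 0.05 (2.72e-08), and the uridine phosphorylase gene UPP1 by 0.44 ± 0.06 (3.96e-06). ADA, adenosine deaminase, rose by 0.89 ± 0.11, with means of 2.27 ± 0.0889 and 4.19 ± 0.285 CPM (SD, n = 3; edgeR adjusted p = 8.68e-07). The count that rose was 2 without siLINC00152 replicate C.

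TK2 and DGUOK supply mitochondrial DNA maintenance. Of 21 tested genes of that process, 8 fell, 5 rose and 8 were not called, beside 32.2% lower and 32.2% higher among all tested genes; the median log2 fold change was −0.01. The nuclease gene MGME1 fell by 0.62 ± 0.05 (SE), PRIMPOL by 0.56 ± 0.07, the topoisomerase gene TOP1MT by 0.43 ± 0.06 and the fusion GTPase gene OPA1 by 0.41 ± 0.05 (edgeR adjusted p = 1.64e-06 or lower). POLG, the mitochondrial DNA polymerase, rose by 0.27 ± 0.05 (edgeR adjusted p = 9.20e-05), the ligase gene LIG3 by 0.28 ± 0.06 and FBXL4 by 0.31 ± 0.07 (edgeR adjusted p = 6.16e-04 and 7.58e-04). POLRMT, the mitochondrial RNA polymerase, rose by 0.16 ± 0.05 (edgeR adjusted p = 0.0134), but did not pass with library size alone (0.09), without siGL2 replicate C (0.12) or without siLINC00152 replicate A (0.11). The count that rose was 3 without siGL2 replicate C and 3 under library size alone. TFAM, which packages mitochondrial DNA, stood at −0.01 ± 0.05 and did not pass.

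Genes for making ribonucleotide precursors were more often called lower than higher, where 32.2% of all tested genes were called in each direction. Of 16 genes of purine synthesis and salvage, 10 fell, 2 rose and 4 were not called; the median log2 fold change was −0.23. IMPDH2, which opens the guanine branch, fell by 0.76 ± 0.04 (SE; edgeR adjusted p = 6.26e-12), whereas its paralogue IMPDH1 rose by 0.25 ± 0.05 (edgeR adjusted p = 2.03e-04). The adenosine kinase gene ADK fell by 0.57 ± 0.06, ATIC by 0.43 ± 0.05 and PRPS2 by 0.34 ± 0.05 (edgeR adjusted p = 7.61e-06 or lower), and the adenylosuccinate synthase gene ADSS rose by 0.44 ± 0.05 (edgeR adjusted p = 1.22e-07). Of 8 pyrimidine genes, 5 fell, 1 rose and 2 were not called; the median was −0.19. CAD, which carries the first steps of pyrimidine synthesis, fell by 0.40 ± 0.06, DHODH by 0.30 ± 0.08, UMPS by 0.23 ± 0.05 and the CTP synthase gene CTPS1 by 0.21 ± 0.05 (edgeR adjusted p = 0.00201 or lower), and UCKL1 rose by 0.24 ± 0.06 (edgeR adjusted p = 0.00124).

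**Figure D5:**
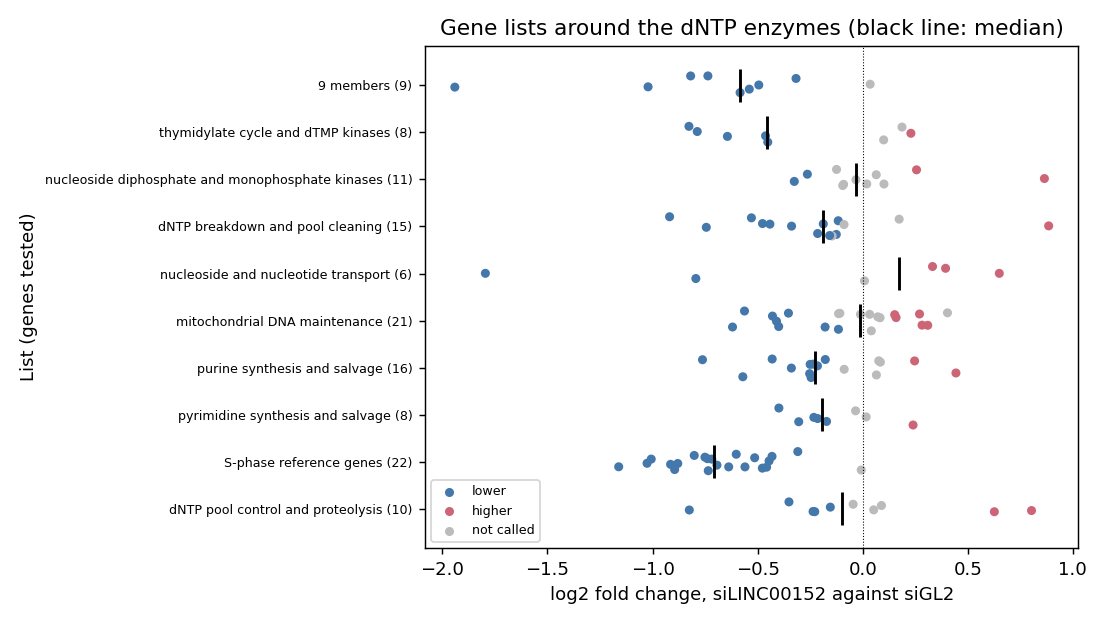
Log2 fold change of every tested gene in the 9-gene set and in each fixed list, with blue for genes called lower, red for higher and grey for neither, and a black line at the median of the list. The S-phase reference genes (median −0.71) and the 9 genes (median −0.58) lie furthest to the left, and SLC25A33 at −1.80 lies nearest to TK2 at −1.94.

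Of 10 known regulators of these enzymes, 5 fell, 2 rose and 3 were not called, where 32.2% of all tested genes were called in each direction; the median log2 fold change was −0.10. E2F8, a repressor of E2F targets, fell by 0.82 ± 0.06, while the related repressor gene E2F7 rose by 0.63 ± 0.05 (edgeR adjusted p = 2.36e-10 and 3.17e-10). SKP2, a ubiquitin ligase subunit, rose by 0.80 ± 0.05, with means of 40.9 ± 1.71 and 71.3 ± 1.07 CPM (SD, n = 3; edgeR adjusted p = 1.14e-11). The checkpoint kinase gene CHEK1 fell by 0.35 ± 0.06, CCNF, the cyclin F that marks RRM2 protein for degradation, by 0.24 ± 0.06 and the histone gene activator NPAT by 0.23 ± 0.06 (edgeR adjusted p = 0.00211 or lower). The count that rose was 4 without siGL2 replicate A.

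The genes with profiles nearest to TK2 were sought among 9232 genes of at least 10 CPM, by Euclidean distance between mean-centred log2 CPM over the 6 libraries. They were CSF3 (distance 0.187), PLAU (0.188), KIF7 (0.204), TWSG1 (0.205) and TGM2 (0.234), which encode a cytokine, a plasminogen activator, a kinesin of hedgehog signalling, a modulator of BMP signalling and a transglutaminase. The nearest to RRM2 were PAK1 (0.0511), ALDH1A3 (0.0606), CHAF1B (0.0663), ZWINT (0.0708) and ASNSD1 (0.0779). The first of each list had a log2 fold change of −1.80 (CSF3) and −0.86 (PAK1). None of the 10 was a member or belonged to a fixed list. With 2 groups of 3 libraries this distance mostly reflects the difference between the groups.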

How the data were processed

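Libraries that keep strand were prepared from polyA RNA of U87 cells and read from both ends, per the labels' protocols. For each of 6 libraries the deposited table gives raw counts for every gene symbol. The submitters' processing notes name bcl2fastq, HISAT, HTSeq, DESeq and hg38, with no version. Annotation, strand setting and treatment of multiply placed reads: not given in the sources used here.

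The rest was computed with R 4.3.3, edgeR 4.0.16, limma 3.58.1, DESeq2 1.42.0, Python 3.11.15, numpy 2.4.6, pandas 2.3.3 and matplotlib 3.10.9. The filterByExpr rule (minimum count 10, minimum total 15) kept 14078 of 27192 genes. After TMM scaling, all 6 libraries entered edgeR's quasi-likelihood test in its robust form, without covariates, with Benjamini-Hochberg adjustment over all tested genes and a call at adjusted p under 0.05. Tests were two-sided. SE is the log2 fold change over the square root of F. On simulated data for this comparison over 13969 genes, the step recovered 78% of 1.25-fold, 94% of 1.5-fold and all of 2-fold and 4-fold changes. It called 15 of 13769 unchanged genes. Few genes were changed in the simulation, while 64.3% of tested genes were called in the data. These rates may therefore differ in the data.

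Members and lists were chosen with earlier results of these data known. The lists hold 9 groups of pathway genes and markers of 6 cell types. The text names all members, LINC00152, genes whose exons overlap those of members, the 5 nearest profiles to TK2 and RRM2, and the most abundant markers. It also names up to 4 called genes per list and direction with the smallest p. Overlaps of members other than TK2 were added after their values were seen. So were CCNA2, TFAM and the markers SYT1, RBFOX3 and SYN1. Lists are described by counts and medians, without a set test, and some genes they hold are not reported here. Lengths, coordinates and exon overlaps come from GENCODE release 29 on GRCh38. With 41963120 to 46234763 counts a library, the lowest member count was 595.

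Chi-square per degree of freedom between replicates was 2.91 to 13.7, so none agreed within sampling noise. Alternatives were another scaling, no filter, DESeq2, limma-voom, the replicate letter as a block, other pseudocounts and lengths, and leaving out each library.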

Additional observations from a re-analysis of the deposited data

How the results depend on the processing

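The 8 falls of members, the call of LINC00152 and the call counts of the whole table kept their direction and side of the threshold, or stayed within 1.5 times, under DESeq2 size factors, library size alone, no filter, DESeq2, limma-voom, a replicate block and without each library in turn. All 8 members were called lower in each of these. Library size alone moved the median log2 fold change by −0.07 and gave 5389 genes lower and 3755 higher. The letters were not taken as pairs: deviations of same-lettered libraries correlated at 0.08 (A), −0.01 (B) and 0.07 (C), and siGL2 B did not correlate best with its own letter. With the replicate block TK2 stood at −1.94 and DCK at −1.02, and the one count it moved by over 1.5 times was that of thymidylate cycle genes that rose, to 2 from 1. Without 1 library, this count ranged from 1 to 2, that of dNTP breakdown genes that rose from 1 to 2, that of pool control genes that rose from 2 to 4 and that of mitochondrial DNA maintenance genes that rose from 3 to 5; the last was 3 with library size alone. The cause was not tested. The log2 difference of the TK1 to TK2 ratio was 1.41, and 1.32 with a pseudocount of 2. With the longest transcript as length, control levels per kilobase were 107 (TK1), 128 (TYMS), 89.4 (RRM1), 162 (RRM2), 54.4 (DUT), 11.0 (TK2), 47.2 (DGUOK), 20.3 (RRM2B) and 25.6 (DCK), higher because that length is shorter. With library size alone they were 98.6 (TK1), 69.3 (RRM1), 115 (RRM2) and 8.05 (TK2). No value was computed for genes that overlap TK2, since the counts do not list them under the symbols used here.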

Other observations

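The make-up of the set differed between groups. As a share of the summed level per kilobase of the 9 genes, TK2 made up 1.64% in the control and 0.657% after knockdown, DCK 4.50% and 3.41%, and RRM2 23.4% and 20.4%. RRM2B made up 3.78% and 5.94%, and DGUOK 7.76% and 9.56%. The summed level was 479 CPM per kilobase in the control and 312 after knockdown, so a share can rise without a gain. DGUOK itself stood at 37.1 and 29.8 CPM per kilobase, and RRM2B at 18.1 and 18.5. The ratio of RRM1 to RRM2 was 0.467 to 0.484 in the control libraries and 0.543 to 0.584 after knockdown (CPM + 0.5). That of DCK to DGUOK was 1.27 to 1.30 and 0.735 to 0.857, and that of TYMS to DUT 1.77 to 1.87 and 1.55 to 1.62. In each of these 3 ratios the groups did not overlap.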
